A study of Canis lupus familiaris with 12 samples.

Results

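Complement is a system of blood and tissue proteins that marks surfaces for clearance and can pierce membranes. Its classical pathway starts when the proteases C1r and C1s, bound to C1q, are activated, all pathways meet at the cleavage of C3, and host cells limit the cascade with soluble and membrane-bound regulators. The liver makes most circulating complement, and kidney tubule epithelium is known to make C3 and other components locally, more so under inflammatory cytokines. Complement components and regulators were examined here by 9 gene symbols, C3, CFB, CFI, CD55, CD46, CD59, C1R, C1S and SERPING1, taking every probe set whose platform annotation named exactly 1 of them. Of these 9 genes, 6 were represented, by 24 probe sets, among 15115 genes with a probe set of their own, and CFB, CD55 and CD46 were not analysed here.

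Expression was measured on 12 one-colour Affymetrix dog arrays with RNA of MDCK II tet-off cells, a subline of the established dog kidney tubule line Madin-Darby canine kidney. The control group (2D, 6 arrays) held flat sheets from 2-dimensional culture in type I collagen, and the other group (3D, 6 arrays) held multicellular cysts from 3-dimensional culture in the same matrix. Both groups were kept in the same medium with serum and G418, collected on day 8 by collagenase digestion of the gel, and hybridised as pools, each array carrying the RNA of 4 separate samples. All cells came from a single line, nothing in the labels says how the pools were drawn, and p-values therefore measure the spread between these pools, which may in part be technical. The comparison asked how 3D growth differs from 2D growth.

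All values are log2(intensity + 1), and a change is the 3D mean minus the 2D mean on that scale. A gene with several probe sets was represented by the brightest. A change was called at a limma p-value adjusted by Benjamini-Hochberg over 42924 probe sets (adjusted p) under 0.05. Where the mean over a gene's probe sets was fitted instead, the adjustment ran over 15115 genes. Array medians lay between 89.9 and 93.7 intensity units, and each array's background level was the 95th percentile of 59 control probe sets that match no dog gene (5.71 averaged over arrays). Of all genes, 19.8% were raised and 22.9% lowered in 3D. RNA integrity, read from the 5-prime over 3-prime signal of the control probe sets for actin and GAPDH, was also unequal. This RNA ratio averaged -0.91 ± 0.14 on the log2 scale over the sheets and -0.54 ± 0.17 over the cysts (SD, n = 6 arrays per group, exact two-sided permutation p = 0.00866). In 3D replicate 2 this ratio was -0.88, within the range of the 2D arrays, and that array and 2D replicate 6 lay farthest down the second principal component (9.49% of the variance). Changes from a fit with this ratio as a covariate are given where it moved a named value most, and its part in other results was not tested.

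The early classical pathway proteases and C3 were higher in cysts, and the membrane regulator CD59 rose less. Of the soluble regulators, CFI had small negative changes on all 5 probe sets, of which 2 passed. The SERPING1 probe sets differed in direction. Of the 6 measured genes 4 rose, C1R, C3, C1S and CD59, beside a background of 19.8%, and 0 fell (0 also at an unadjusted limma p under 0.05). Their groups did not overlap, as was the case for 13.2% of all genes with the cysts higher and 9.49% with the cysts lower. The median change of the 6 genes was 0.43, against -0.05 over all genes. Of the 24 probe sets, 16 rose, 2 fell and 6 did not pass, where 16.7% of all probe sets rose and 22.0% fell. The groups did not overlap for 12 of them with the cysts higher and for 1 with the cysts lower, beside 10.1% and 8.62% of all probe sets.

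**Figure D1:**
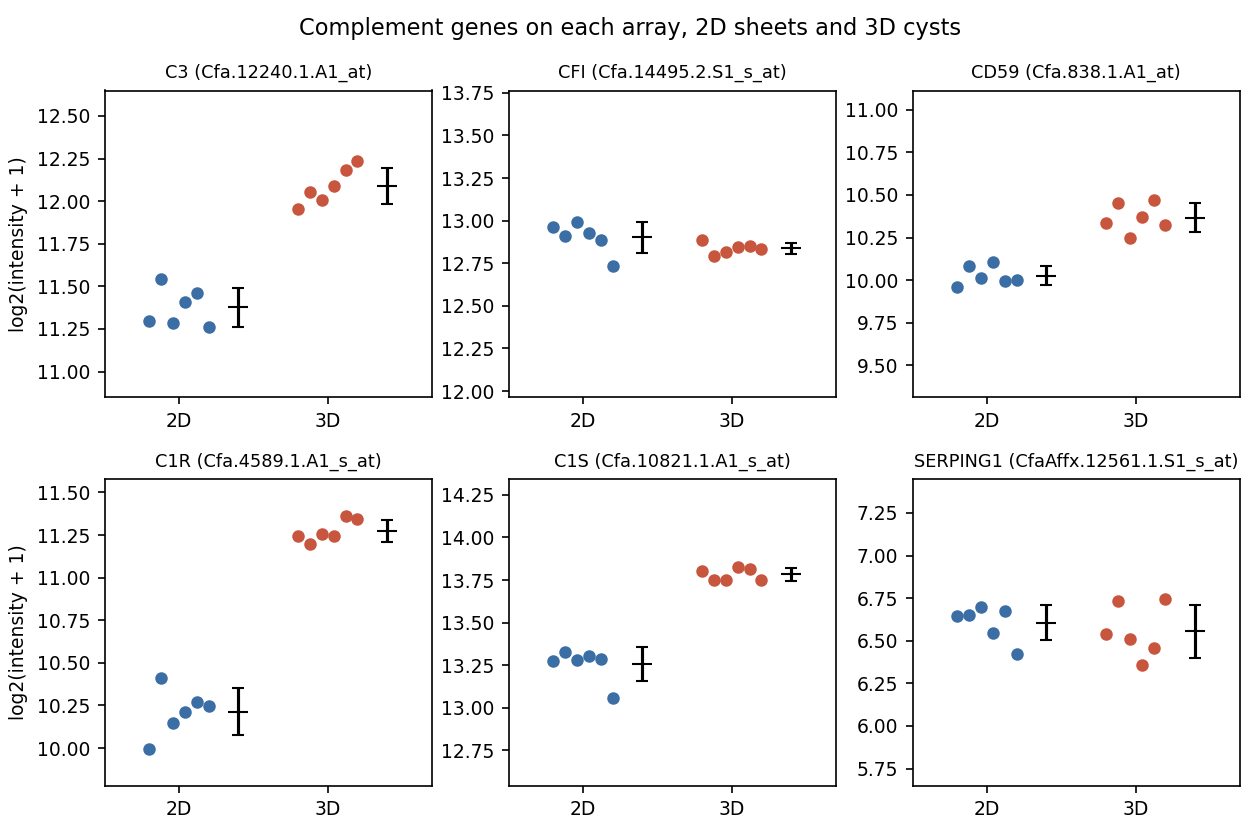
Level of each measured complement gene on every array, as log2(intensity + 1) of the brightest probe set, for 2D (blue) and 3D (red), with the mean ± SD of 6 arrays beside the points; each vertical axis spans the same range. C3, CD59, C1R and C1S lie higher on all 6 cyst arrays than on any sheet array, and CFI and SERPING1 overlap.

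C1R encodes a serine protease of the C1 complex that activates itself and then C1s. Its brightest probe set had a lowest, median and highest level of 10.00, 10.23 and 10.41 in 2D and of 11.20, 11.25 and 11.36 in 3D. Every cyst array thus stood above every sheet array, and the 3D values were the more tightly grouped. The mean rose from 10.21 ± 0.14 to 11.27 ± 0.06 (SD, n = 6 each), a change of 1.06 (SE 0.06, limma adjusted p = 1.49e-09), or 2.09-fold. This was the largest rise among the 6 genes, and 1.66% of all genes rose by more. The dimmer probe set went from a range of 8.43 to 8.93 in 2D to a range of 9.26 to 10.14 in 3D, a change of 1.24 (SE 0.13, limma adjusted p = 1.40e-06). Its lowest cyst array was 3D replicate 2 at 9.26, and the other 5 lay at or above 9.91.

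C1S encodes the protease that C1r activates and that cleaves C4 and C2. The brightest of its 4 probe sets lay between 13.06 and 13.33 in 2D, with a median of 13.29, and between 13.75 and 13.83 in 3D, with a median of 13.78. The groups did not overlap, and the change was 0.53 (SE 0.05, limma adjusted p = 5.05e-07), or 1.44-fold. The other 3 probe sets rose by more, by 0.87 (SE 0.06), 1.01 (SE 0.13) and 1.02 (SE 0.15) in order of falling level, each with a limma adjusted p of 4.62e-05 or less. The size of the C1S rise therefore depended on the probe set, although all 4 gave the same direction. C1R and C1S are adjacent in the RefSeq annotation of the dog assembly UU_Cfam_GSD_1.0, with 0 genes between them. Of their 6 probe sets 5 carry the suffix _s_at, which marks probes that match several transcripts, and signal from related sequences cannot be told apart from the gene's own there. The dimmest C1S probe set carries _a_at, which marks several transcripts of the same gene.

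C3 is the central component, whose cleavage product binds covalently to surfaces. On its brightest probe set the lowest, median and highest levels were 11.26, 11.35 and 11.54 in 2D and 11.96, 12.07 and 12.24 in 3D. All cyst arrays exceeded all sheet arrays, by a gap wider than the range within either group. The mean rose from 11.38 ± 0.11 to 12.09 ± 0.11 (SD, n = 6 each), a change of 0.71 (SE 0.06, limma adjusted p = 1.85e-07), or 1.64-fold. All 6 C3 probe sets rose, with changes between 0.62 and 1.00, and the groups did not overlap for the 3 brightest. The second brightest, which like the first carries the plain suffix _at, rose by 0.83 (SE 0.06, limma adjusted p = 2.02e-08).

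The 3 dimmer C3 probe sets overlapped between groups through a single cyst array. On the fifth in order of brightness, 3D replicate 2 read 7.11, inside the 2D range of 6.62 to 7.32, while the other cyst arrays read 8.01 to 8.45. On the dimmest it read 6.291, about level with the lowest sheet array (6.295), while the others read 7.36 to 8.02. Across the 12 probe sets of C3, C1R and C1S, 3D replicate 2 was the lowest cyst array in 10. Without that array the dimmest C3 probe set rose by 0.85 (limma adjusted p = 0.000150) rather than 0.62 (SE 0.22, limma adjusted p = 0.0395). Its call ended when any 1 of 9 other arrays was left out (limma adjusted p up to 0.0923). The call also ended with quantile normalization (limma adjusted p = 0.0598) and with another variance prior (limma adjusted p = 0.0669).

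**Figure D2:**
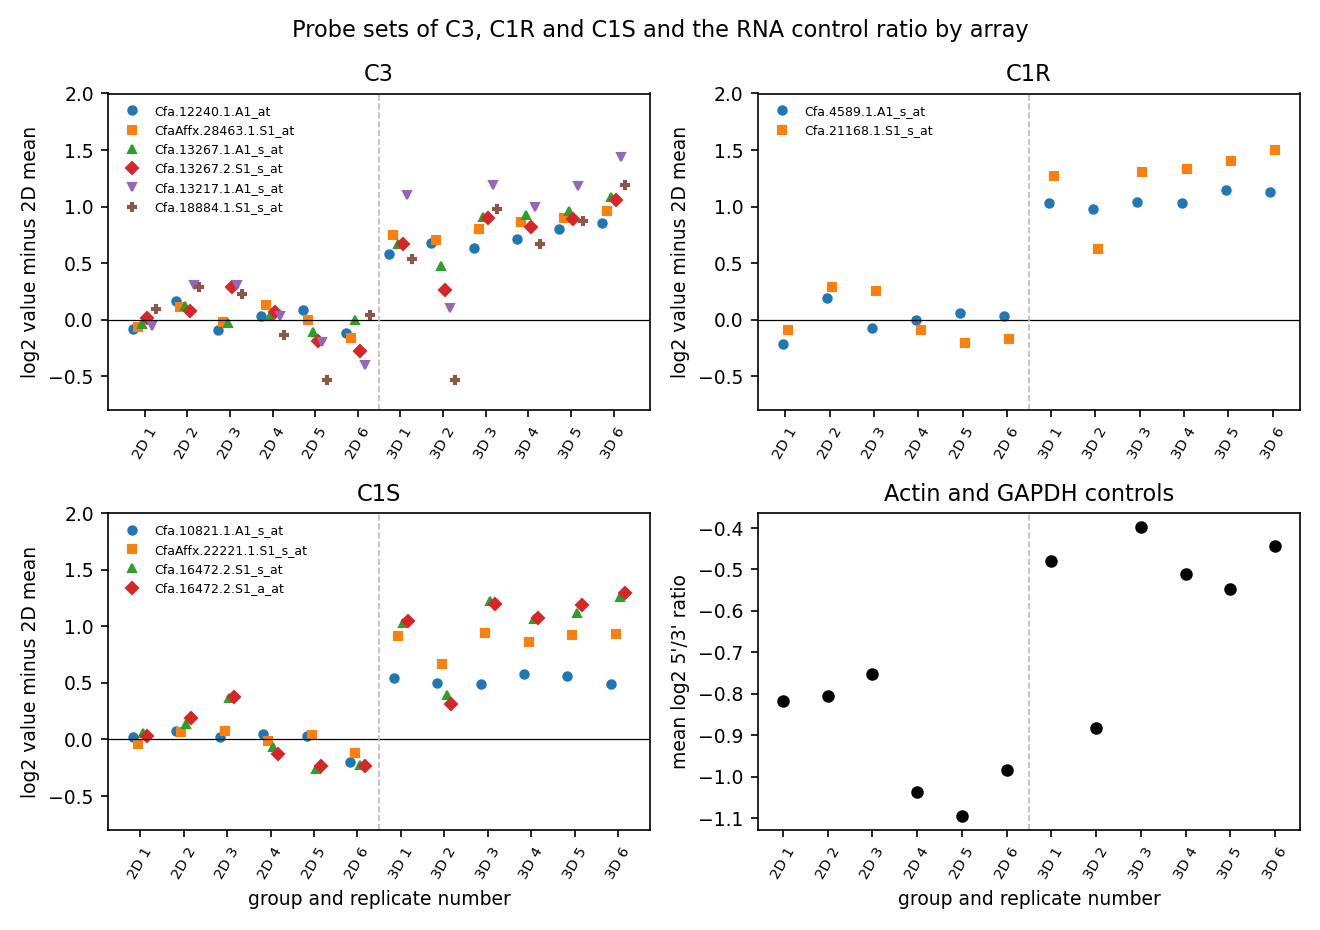
Each probe set of C3, C1R and C1S by array, as the log2 value minus that probe set's 2D mean, with the RNA control ratio (mean log2 of 5-prime over 3-prime signal for GAPDH and actin) in the last panel; the dashed line divides 2D from 3D arrays. In 3D replicate 2 the dimmer probe sets lie nearer the sheets than in the other cysts, and its control ratio of -0.88 lies in the 2D range.

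The RNA control ratio moved with these probe sets to different degrees. With the ratio as a covariate, the brightest probe sets changed little: C1R rose by 1.05 (SE 0.10, limma adjusted p = 2.56e-06), C3 by 0.73 (SE 0.10, limma adjusted p = 0.000104) and C1S by 0.50 (SE 0.08, limma adjusted p = 0.000426). The same fit lowered the rise of the dimmer C1R probe set from 1.24 to 0.69 (SE 0.12) and that of the dimmest C1S probe set from 1.02 to 0.34 (SE 0.10), and both still passed. Of the 3 dimmer C3 probe sets none passed in it, with changes of 0.30 (SE 0.12), 0.24 (SE 0.16) and -0.39 (SE 0.17, limma adjusted p = 0.139). In all, 12 of the 24 probe sets rose and 1 fell with the covariate, where 4303 of all 42924 probe sets rose and 3624 fell.

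**Figure D3:**
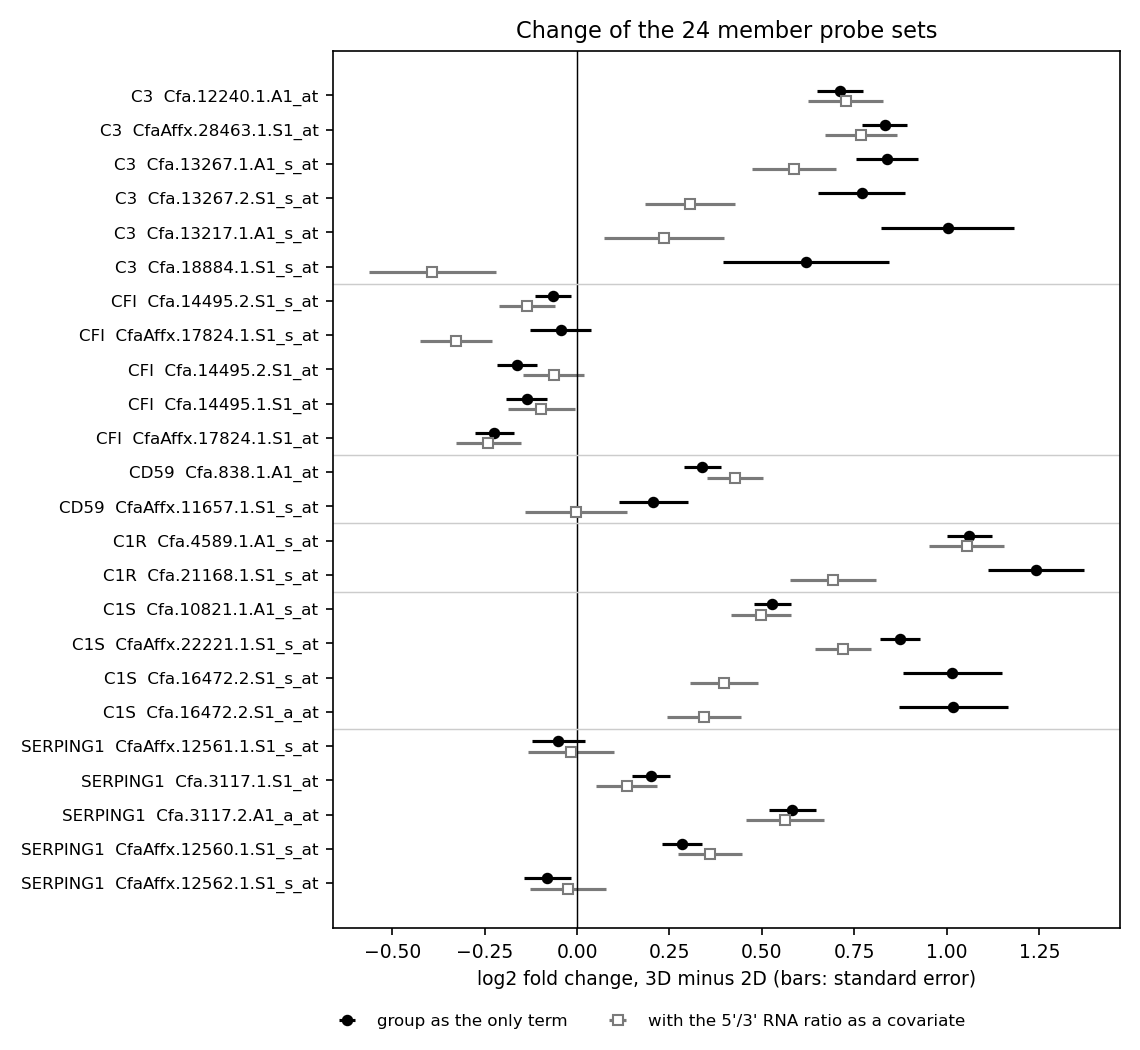
Log2 fold change (3D minus 2D) with its standard error for the 24 complement probe sets, ordered within each gene from brightest to dimmest, with the group as the only term (black circles) and with the RNA control ratio added as a covariate (open squares). The brightest probe sets of C3, C1R, C1S and CD59 stay near their values, and several dimmer ones of C3, C1R and C1S move towards or past zero.

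CD59 encodes a membrane-anchored inhibitor that stops assembly of the membrane attack complex on host cells. Its brighter probe set had a lowest, median and highest level of 9.96, 10.01 and 10.11 in 2D and of 10.25, 10.35 and 10.47 in 3D. The groups stood apart, with a change of 0.34 (SE 0.05, limma adjusted p = 5.13e-05), or 1.26-fold, and it was 0.43 (SE 0.08) with the RNA ratio as a covariate. The dimmer probe set overlapped between groups, with a range of 8.67 to 9.30 in 2D and of 8.85 to 9.20 in 3D, and did not pass (0.21, SE 0.09, limma adjusted p = 0.0886). Its highest 2D value, 9.30, came from 2D replicate 6 and its lowest 3D value from 3D replicate 2. Without either of these arrays it passed (0.29 without 2D replicate 6 and 0.26 without 3D replicate 2, limma adjusted p = 0.00606 and 0.0264), and its change was -0.0025 (SE 0.14) with the RNA ratio as a covariate.

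CFI encodes factor I, the soluble protease that inactivates C3b and C4b when a cofactor is present. Its brightest probe set ranged from 12.74 to 12.99 in 2D, with a median of 12.92, and from 12.79 to 12.88 in 3D, with a median of 12.84. The cyst values fell inside the range of the sheets, and the change of -0.07 did not pass (SE 0.05, limma adjusted p = 0.291). It passed with quantile normalization (-0.12, limma adjusted p = 0.0281) and with the mean over all CFI probe sets (-0.13, SE 0.03, limma adjusted p = 0.00557). The 4 brighter CFI probe sets had changes between -0.16 and -0.04, and 2 of the 5 fell. Of these, the third brightest went from a range of 10.92 to 11.22 to a range of 10.86 to 11.01 (change -0.16, SE 0.05, limma adjusted p = 0.0260). That call ended with centring on the median (0.0627), with the RNA ratio in the model (-0.06, limma adjusted p = 0.671) and on leaving out 1 of 4 arrays (limma adjusted p between 0.0515 and 0.0628), the arrays being replicates 4 and 5 of 2D and replicates 4 and 6 of 3D. The second brightest moved the other way in that model, from -0.04 (limma adjusted p = 0.683) to -0.33 (limma adjusted p = 0.0288), and was the only member probe set lowered in it. The other that fell, the dimmest of the 5, lay at or below background on 5 of 6 sheet arrays and 6 of 6 cyst arrays, so no fold is given for it.

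SERPING1 encodes C1 inhibitor, the plasma serpin that inactivates C1r and C1s. Its 5 probe sets were all dim, with group means between 5.82 and 6.61 beside the mean background level of 5.71, and they disagreed. The brightest ranged from 6.42 to 6.70 in 2D and from 6.36 to 6.74 in 3D, with a change of -0.05 (SE 0.07, limma adjusted p = 0.590). By contrast the third brightest went from a lowest, median and highest level of 5.74, 5.87 and 5.96 in 2D to 6.21, 6.46 and 6.60 in 3D. Its groups did not overlap, and it rose by 0.58 (SE 0.06, limma adjusted p = 2.57e-06), or by 0.56 (SE 0.11) with the RNA ratio as a covariate.

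A further pair of SERPING1 probe sets also rose with no overlap between groups, the fourth in brightness by 0.28 (SE 0.05, limma adjusted p = 0.000708) and the second by 0.20 (SE 0.05, limma adjusted p = 0.00667). On the second the groups all but touched, with a highest sheet value of 6.32 and a lowest cyst value of 6.321. With the RNA ratio as a covariate the second did not pass (0.13, limma adjusted p = 0.308), and the fourth did (0.36, limma adjusted p = 0.00785). The fifth had a change of -0.08 (SE 0.06, limma adjusted p = 0.321). The mean over the 5 probe sets rose by 0.19 (SE 0.04, limma adjusted p = 0.00119), so whether SERPING1 counts as raised depended on how its probe sets were combined.

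Set in order of role, the measured initiating proteases C1R and C1S and the central component C3 rose on all of their 12 probe sets. The regulators CD59, CFI and SERPING1 rose on 4 of 12, fell on 2 and did not pass on 6. Over all probe sets, 16.7% rose and 22.0% fell. The contrast by role is a count over probe sets that share genes and arrays, and a difference between activating and regulating genes was not tested. Signals near background limit the SERPING1 and dimmest CFI probe sets, and the dimmer C3 probe sets did not pass with the RNA ratio as a covariate. C1R, C3, C1S and CD59 passed as raised in all 22 alternative settings. The brightest probe set stood for each gene, except in the setting that took the mean over a gene's probe sets. Over these settings the change ranged from 1.00 to 1.15 for C1R, from 0.67 to 0.80 for C3, from 0.49 to 0.86 for C1S and from 0.27 to 0.43 for CD59, the highest value for C1R, C3 and C1S and the lowest for CD59 being that of the mean over a gene's probe sets.

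Other genes of the complement system were taken from a list of 48 components, receptors and regulators, of which 36 were measured. Of these 36, 2 rose and 12 fell, and 22 did not pass, beside the backgrounds of 19.8% raised and 22.9% lowered. The 12 became 5 with quantile normalization, 1 with the RNA ratio in the model and 7 without 3D replicate 4. Over all 42924 probe sets, those lowered went from 9437 as reported to 8596, 3624 and 7430 in the same order. The median change of the 36 genes was -0.13, and all changes lay between -0.44 and 0.25, smaller than those of C1R, C3 and C1S. The list includes 8 genes at or below background on every array, C5, C6, C9, CFHR5, COLEC11, CD93, C4BPB and CPB2.

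C2, the protease that C1s cleaves to form the classical C3 convertase, was the clearest rise. It ranged from 9.81 to 9.98 in 2D, with a median of 9.88, and from 10.03 to 10.27 in 3D, with a median of 10.12. The groups did not overlap, the change was 0.25 (SE 0.05, limma adjusted p = 0.000949), and 5 of its 7 probe sets rose. C1RL, a protease related to C1r, rose by 0.25 as well (SE 0.08, limma adjusted p = 0.0179), from a mean of 5.89 that lay near background to 6.14, but with the RNA ratio in the model its change was -0.02 (limma adjusted p = 0.930).

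CFD, factor D, the protease that cleaves factor B in the alternative pathway, fell most among the 12. Its lowest, median and highest levels were 7.48, 7.59 and 7.76 in 2D and 6.96, 7.20 and 7.27 in 3D, with no overlap, and the change was -0.44 (SE 0.06, limma adjusted p = 4.44e-05). The other 11 fell by between 0.14 and 0.26 on the log2 scale. Of the 12, CFD was the only gene that still passed in that model (-0.37, limma adjusted p = 0.0183). Among those with the largest falls, ITGAM, the alpha chain of complement receptor 3, had a change of -0.26, COLEC10, a lectin of the lectin pathway, -0.24, and C8A, a chain of the membrane attack complex, -0.22. The ITGAM call ended with quantile normalization and on leaving out 1 of 4 arrays (2D replicate 1 or replicate 3, 4 or 5 of 3D, limma adjusted p up to 0.0649). The C8A change was -0.15 without 2D replicate 6, and its call ended with quantile normalization (limma adjusted p = 0.0547), without 3D replicate 4 (0.0553) and with the mean of its 5 probe sets (-0.085, 0.104). COLEC10 lay at or below background on 5 of 6 cyst arrays, and 4 of the 12 (C5, C7, COLEC10 and C3AR1) did so on at least 4 of 6.

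Of the genes that did not pass, the brightest was CLU, clusterin, a secreted chaperone that also restrains the membrane attack complex. Its level ran from 14.84 to 15.01 in 2D and from 15.00 to 15.06 in 3D, with a change of 0.06 (SE 0.04, limma adjusted p = 0.258). C1QBP, a mitochondrial protein that binds C1q, had a change of -0.07 (SE 0.07) on a 2D mean of 9.74. The C5a receptor C5AR2 (-0.02, SE 0.06) and CPN1, the catalytic chain of the carboxypeptidase that inactivates anaphylatoxins (-0.13, SE 0.07), did not pass either.

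**Figure D4:**
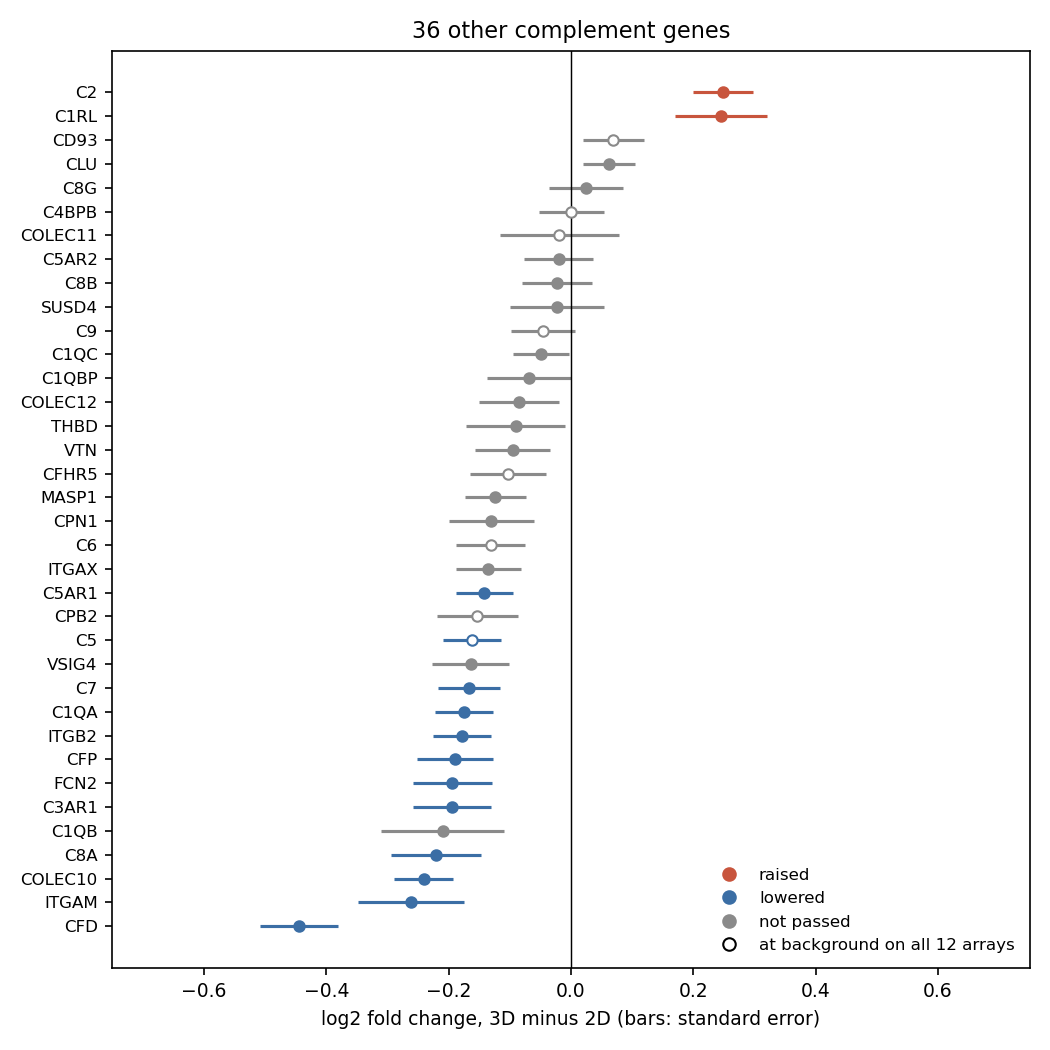
Log2 fold change (3D minus 2D) with its standard error for the 36 other complement genes, coloured by whether the gene was raised, lowered or did not pass at an adjusted p under 0.05, with open points for genes at background on all 12 arrays. C2 and C1RL are raised, CFD has the largest fall at -0.44, and the rest lie between -0.26 and 0.07.

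Cytokines known to induce complement genes in epithelium, their receptors and the transcription factors downstream of them formed a list of 24 genes, of which 20 were measured. Of these, 5 rose, 5 fell and 10 did not pass, near the shares of 19.8% and 22.9% over all genes, with a median change of -0.02. IRF1, an interferon-induced transcription factor, went from a range of 8.55 to 8.76 to a range of 9.69 to 9.88 (change 1.11, SE 0.05, limma adjusted p = 1.49e-10). Both chains of the interferon gamma receptor rose, IFNGR1 by 1.07 (SE 0.07) and IFNGR2 by 0.72 (SE 0.06), as did the TNF receptor TNFRSF1A by 0.80 (SE 0.10, and 0.35 with the RNA ratio in the model) and the NF-kB subunit NFKB1 by 0.58 (SE 0.04), although 1 of the 3 NFKB1 probe sets fell. NR1H4, the bile acid receptor FXR, fell by 0.51 (SE 0.10). It was not called when the RNA ratio was in the model (-0.37, limma adjusted p = 0.147). HNF4A, another transcription factor, fell by 0.25 (SE 0.07, limma adjusted p = 0.0109) with no overlap between groups. With the RNA ratio as a covariate HNF4A did not pass (-0.27, limma adjusted p = 0.126). Receptors of other cytokines were among those that fell, the interleukin 6 receptor IL6R by 0.30 (SE 0.05, limma adjusted p = 0.000185, which became 0.0610 once the RNA ratio was in the model) and the interleukin 1 receptor IL1R1, which lay at or below background on 5 of 6 sheet arrays and 6 of 6 cyst arrays.

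The ligands themselves were dim. IL1A, IL6 and IFNG lay at or below background on every array, and TNF, with a 2D mean of 6.89, did not pass (-0.15, SE 0.07, limma adjusted p = 0.0935). IFNG, although at background, was among the genes of this list counted as fallen. STAT3, which carries the interleukin 6 signal, had a change of 0.15 (SE 0.06, limma adjusted p = 0.0504) and passed in 9 of 22 alternatives, and with the RNA ratio in the model its change was 0.04. RELA (0.12, SE 0.06) and the receptor subunit IL6ST (0.06, SE 0.05) did not pass.

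Markers of cell types that make or carry complement elsewhere were low in both groups. The counts that follow stand beside 19.8% raised and 22.9% lowered over all genes. Of 10 macrophage and monocyte markers, 1 rose and 3 fell, and their summed intensity ran from 639.6 to 743 in 2D and from 656 to 712 in 3D. PTPRC had group means of 6.08 and 5.91, CD163 and LYZ lay at or below background on every array, and CD14, which epithelial cells can also express, rose by 0.43 (SE 0.06). Of 8 fibroblast markers 0 rose and 2 fell (0 and 4 at an unadjusted limma p under 0.05), with sums of 486 to 569 in 2D and 459.6 to 506 in 3D, and COL1A2 at background. Of 5 hepatocyte markers 0 rose and 3 fell, with sums of 369 to 419 in 2D and 322 to 358 in 3D and APOA1 at background, and of 5 endothelial markers 0 rose and 2 fell, with sums of 386 to 429 in 2D and 349 to 390.1 in 3D and PECAM1 at background (the same counts at an unadjusted limma p under 0.05 for both lists). Some other markers in the fibroblast, hepatocyte and endothelial lists lay above background on every array. Among them were COL3A1 (means of 6.64 in 2D and 6.52 in 3D), AHSG (7.07 and 6.75) and CDH5 (6.84 and 6.81). Of the 7 tubule epithelium markers measured, EPCAM, KRT8 and KRT18 were bright, EPCAM at a mean of 13.41 in 2D and 13.38 in 3D. PAX2 was dim (6.45 and 6.28), as was CDH1 in 2D (6.60). The summed intensity of the 7 ran from 25979 to 29730 in 2D and from 31192 to 32944 in 3D. Of the 7, 3 rose (CDH1, KRT8 and KRT18) and 2 fell (CDH16, -0.19, and PAX2, -0.165). With the RNA ratio in the model KRT8 still passed, and CDH1 (0.15 in place of 1.02, limma adjusted p = 0.576) and KRT18 (0.20, limma adjusted p = 0.0583) did not. In that model CDH16 still fell (-0.33, limma adjusted p = 0.0228) and PAX2 did not pass (-0.21, limma adjusted p = 0.103). PAX8, not called as reported, fell in it (-0.38, limma adjusted p = 0.00524). CDH1 overlapped between groups through 3D replicate 2 at 6.65, and the other cyst arrays read 7.68 to 8.13. In pooled RNA, more cells that express a gene and more RNA per cell cannot be told apart.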

How the data were processed

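The authors deposited linear intensities, a single value for each of 43035 probe sets on each array. GCRMA, a background correction and summary method, is named without a version in the submitters' processing notes, and how probes were grouped or values scaled afterwards is not given in the sources used here. Values were used as log2(intensity + 1) without further normalization or filter. After 111 control probe sets were left out, 42924 were tested, of which 29254 named 1 gene in the platform annotation, 439 several and 13231 none. Gene identifiers of 27680 matched RefSeq genes of UU_Cfam_GSD_1.0, which changed 0 symbols and served for names and gene order. The groups were compared with limma 3.58.1 (lmFit, eBayes) under R 4.3.3 in a model holding the group alone. Exact permutation tests used scipy and figures matplotlib 3.10.9. The fit was tested on simulated data first. Members and lists were chosen with earlier results of these data known. By rule the text names all measured members with their probe sets, and, of each further list, up to 6 genes that passed, by size of change, and up to 4 that did not, by level. The 5 genes most like C3 over the 12 arrays are also named. HNF4A, IL6R, IL1R1 and the cell type markers named were chosen after their values were seen. Alternatives were a filter, 2 normalizations, another variance prior, weights per array, a block for the replicate number, a pseudocount of 16, the mean of a gene's probe sets, the RNA ratio as a covariate, and arrays left out. The number of arrays limits the precision.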

Additional observations from a re-analysis of the deposited data

Results flagged for a closer look

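In a group of 6 arrays, a value was marked where its gap to the nearest other array took up an unusually large share of the group's range (above Dixon's 95% critical value). Of 88 groups of values checked, 15 had such an array, where chance marks about 1 in 20. In 3D replicate 2 the level was far below the other cysts on the dimmer C1R probe set (9.26, the nearest array at 9.91), on 3 C1S probe sets (12.20, 11.46 and 10.34, with the nearest at 12.39, 12.10 and 11.07), on the fifth brightest C3 probe set (7.11 against 8.01), on the dimmer CD59 probe set (8.85 against 9.08), on the second brightest CFI probe set (11.19 against 11.52) and on TNFRSF1A (8.46 against 8.88). On the fourth brightest CFI probe set the same array was the highest (6.44 against 6.29). In 2D replicate 6 the brightest C1S probe set was low (13.06 against 13.27), CLU was low (14.84 against 14.99) and C8A was high (6.86 against 6.46). Single arrays also stood apart for COLEC10 in 3D replicate 3 (5.40 against 5.57), C5AR2 in 2D replicate 1 (7.11 against 6.90) and NFKB1 in 3D replicate 6 (9.96 against 10.02).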

How the results depend on the processing

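The count of raised members stayed at 4 in 21 of 22 alternatives and was 5 with the mean of a gene's probe sets. That of lowered members, 0 as reported, was 1 with quantile normalization and 1 with that mean (CFI in both). Of the other complement genes, 12 fell as reported, 5 with quantile normalization, 1 with the RNA ratio added as a covariate, and between 7 and 15 when an array was left out, and 2 rose as reported but 1 with the covariate. The count of 7 came without 3D replicate 4. Over all 42924 probe sets, 7171 rose and 9437 fell as reported, and 4303 rose and 3624 fell with the covariate. Some changes turned sign. With the covariate, the dimmest C3 probe set had -0.39, the dimmer CD59 probe set -0.0025, C1RL -0.017, C1QBP 0.047, RELA -0.031 and IL6ST -0.067. C5AR2 had 0.0036 with centring on the median, and SERPING1 0.19 with the mean of its probe sets. With arrays left out, the second brightest CFI probe set ranged from -0.087 to 0.022 and C5AR2 from -0.045 (without both 2D replicate 6 and 3D replicate 2) to 0.021. The cause was not tested. Of 507 values of member probe sets under alternatives, 468 kept direction and side of the threshold. The replicate numbers were not taken to pair the arrays, since no label says that they do and the deviations of same-numbered arrays correlated at only 0.001 to 0.36, all above 0. As a hint from the data, 5 of 12 arrays correlated best with their own number. With the replicate number as a block, 4 members rose and 0 fell, and the fall of the third brightest CFI probe set no longer passed (-0.16, limma adjusted p = 0.0541). Signals near background limit SERPING1 and the dimmest CFI probe sets.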

Other observations

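Genes whose levels over the 12 arrays followed C3 most closely, by Pearson correlation of log2 values, were S100P (0.996), VMO1 (0.992), AGR2 (0.991), SELENOW (0.991) and BTG3 (0.990). All 5 are higher in cysts, by between 0.51 and 1.80 on the log2 scale, as C3 is. With the group means removed, the correlations were 0.95, 0.90, 0.88, 0.91 and 0.85 in the same order. AGR2, a protein disulphide isomerase relative of secretory epithelium, had the largest change of them, and S100P is a calcium-binding protein. Among the members, C1R followed C3 at 0.98 (0.71 with the group means removed), C1S at 0.96 (0.42) and CD59 at 0.94 (0.41), and CFI (-0.44, 0.057) and SERPING1 (-0.13, 0.27) did not. These correlations share arrays and RNA pools, were picked from all genes, and are given as a description.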
